A study of Mus musculus with 4 samples.

Results

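The 385 regions described here held a binding site of NF-YB and no listed site of NF-YA or NF-YC. They were found by pooling the site lists of the 3 subunits of the transcription factor NF-Y, taking the midpoint of each site as its centre, and chaining sites whose neighbouring centres lay within 200 bp. Of the 5350 regions that resulted, 385 held NF-YB sites only (7.2%, exact 95% binomial interval 6.52 to 7.92). Each of them consisted of a single site, so the 385 regions were 385 of the 2774 sites of the NF-YB list (13.9%, 12.6 to 15.2). The intervals here and below cover counting error over sites only.

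NF-Y is a complex of its A, B and C subunits that recognises the CCAAT box, an element common in mammalian promoters. The histone folds of NF-YB and NF-YC are related to those of core histones, and through them the 2 proteins pair. NF-YA joins that pair and makes the base-specific contact with CCAAT, so NF-YB is not known to read this element without its partners. In embryonic stem cells NF-Y has been studied at promoters and at distal elements used by pluripotency factors.

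All libraries came from E14Tg2a cells, an untreated mouse embryonic stem cell line of strain 129/Ola, crosslinked with 1% formaldehyde for 10 min. Per the labels, the antibody was a mouse monoclonal for NF-YA and a rabbit polyclonal for either of the other subunits. Each subunit had 1 library and shared 1 input DNA library (no antibody) as background, so there was no replicate and no test between subunits. The NF-YB library was the deepest, with 13859303 tags kept for site calling, against 11479998 for NF-YA and 11390494 for NF-YC. The lists carry no gene names, and the cell type was therefore not checked against marker genes. Genes, promoters and CCAAT motifs at the regions, and their sequences, were not analysed here, because positions are on mm9 and no genome or annotation of that build was used.

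The regions were chosen by the presence of a site in the NF-YB list and its absence from the other lists, that is, by the tags and folds that decided each call. A site was listed only with at least 15 tags for NF-YB, at least 14 tags for NF-YA or NF-YC, and a fold over input of at least 7. Absence from a list is thus a statement about these limits, and not about absence of the protein. Tag counts, folds and widths of the 385 NF-YB sites come from the list that chose them. They are given as a description, with no test.

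Most NF-YB-only sites were weak. The lowest held 15 tags, the median 21 and the highest 219, with quartiles of 17 and 30. NF-YB sites in regions of NF-YA and NF-YB had a median of 34 tags, those in regions of all 3 subunits 58 tags, and those in regions of NF-YB and NF-YC 30 tags. The ranges overlapped, since sites of every kind began at 15 tags. The upper quartile of NF-YB-only sites, 30 tags, lay below the first quartile in regions of all 3 subunits, 35 tags. It lay above the first quartile in regions of NF-YA and NF-YB (22) and of NF-YB and NF-YC (19). Of the NF-YB-only sites, 53 held exactly 15 tags, the fewest a listed site could have, and 38 held 16. Together the 385 sites carried 10449 tags, or 6.39% of the tags of all NF-YB sites.

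The share of NF-YB sites that stood alone fell with every step in tag count. It was 41.1% at 15 to 19 tags (169 of 411 sites, 36.3 to 46.0), 27.0% at 20 to 24 tags (68 of 252) and 22.3% at 25 to 29 tags (51 of 229). At 30 to 39 tags it was 13.0% (48 of 370) and at 40 to 49 tags 6.81% (22 of 323). Above that it was 3.19% at 50 to 69 tags (13 of 407), 2.25% at 70 to 99 tags (8 of 355) and 1.91% at 100 to 149 tags (5 of 262). At 150 tags or more, 1 of 165 sites stood alone (0.606%, 0.0153 to 3.33). In all, 27 of the 385 held 50 tags or more, whereas 42.9% of all NF-YB sites did.

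**Figure D1:**
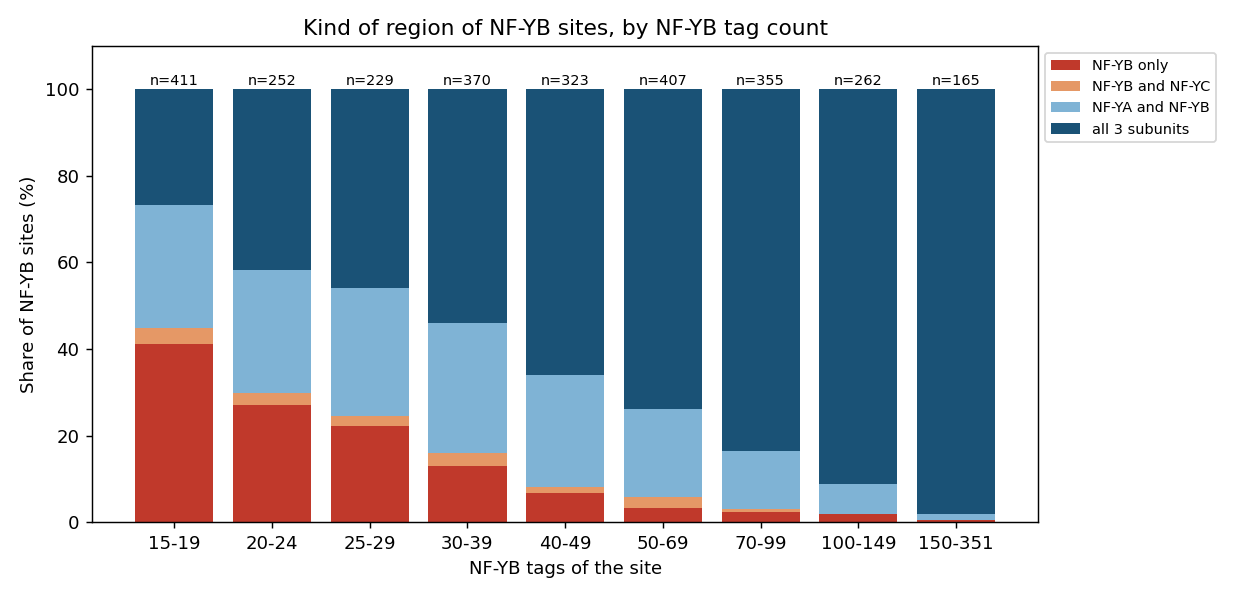
Stacked bars give the share of NF-YB sites (vertical axis, %) in each kind of region, for 9 classes of NF-YB tag count (horizontal axis, with the number of sites above each bar). The red NF-YB-only part shrinks from 41.1% at 15 to 19 tags to 0.606% at 150 tags or more.

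At weak NF-YB sites that did have partners, some of the partners were also close to their own minimum. For NF-YB sites of 15 to 19 tags with an NF-YA site in the region (227 sites), the NF-YA tags had a median of 25 and a first quartile of 19, and 27.3% were under 20. The 125 such sites with NF-YC had a median of 21 NF-YC tags, and 35.2% were under 20. Among NF-YB sites of 50 to 69 tags, 1.57% of NF-YA partners and 4.81% of NF-YC partners were under 20 tags. Listed partner sites thus lay nearer to the 14-tag limit where NF-YB was weak, though most held 20 tags or more. Of the 385 NF-YB-only sites, 169 held 15 to 19 tags. Partners below the limit have no value here, and whether missing partners fell just under it was not tested.

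The tags that a partner would have had at its usual ratio to NF-YB were set beside the limit. Over the 1724 regions of all 3 subunits, the NF-YA tags were a median of 1.20 times the NF-YB tags (quartiles 0.833 and 1.73), and the NF-YC tags 0.750 times (0.522 and 1.11). These ratios come from regions where every subunit passed its limit, which leaves out the low partner counts. A single ratio per partner was used at all tag counts, although observed partner tags rose less steeply than NF-YB tags. At the median ratio the NF-YA count would have reached 14 at each of the 385 sites, since 12 NF-YB tags suffice. For NF-YC 19 NF-YB tags were needed, and 234 of the 385 sites had them (60.8%, 55.7 to 65.7), against 87.4% of all NF-YB sites. At the other 151 sites the NF-YC count at that ratio lay below the limit. With the first quartile of the ratios in place of the median, 124 of the 385 sites would have reached the limit for both partners.

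**Figure D2:**
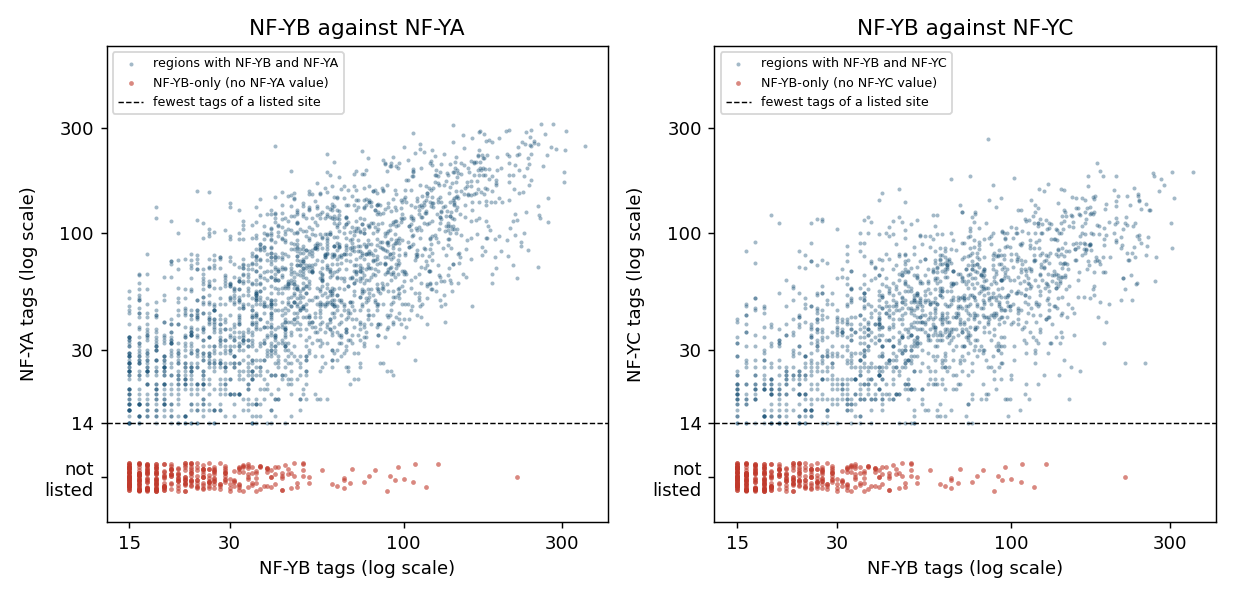
Each blue point is a region with NF-YB and NF-YA sites (left) or NF-YB and NF-YC sites (right), with NF-YB tags on the horizontal and partner tags on the vertical axis, both on log scales. Red points are the 385 NF-YB-only sites, placed in a band marked "not listed" because they have no partner value; their vertical spread inside the band has no meaning, and the dashed line marks 14 tags.

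Fold over input did not separate the regions from the rest of the NF-YB list as tags did. The NF-YB-only sites had folds from 7.12 to 63.1 with a median of 14.2, which lay above the median of 13.3 in regions of NF-YA and NF-YB and below the 20.4 in regions of all 3 subunits. By rank within the NF-YB list, the median percentile was 17.4 for tags (15.7 to 21.2) and 38.2 for fold (31.2 to 41.7). The fold is arithmetically tied to few input tags at weak sites: the NF-YB tags over the fold, scaled by 1.007 (kept NF-YB tags over input tags), gave a whole input count at 374 of the 385 sites (within 0.005). At 15 to 19 tags a fold of 7 admits only 1 or 2 input tags. Accordingly the 169 sites in this class had a fold between 7.45 and 9.44 (72 sites) or between 14.9 and 18.9 (97 sites), and none between.

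**Figure D3:**
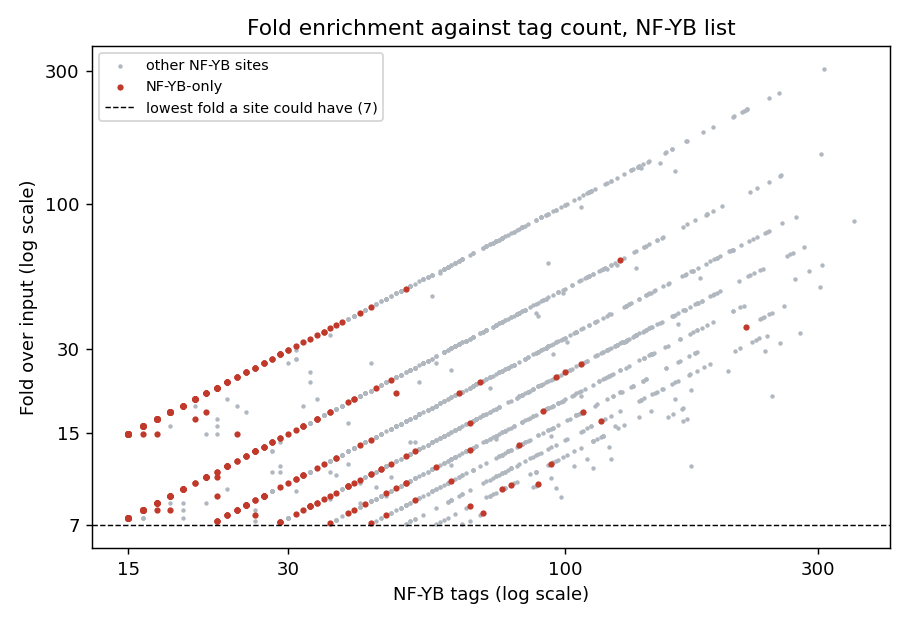
NF-YB tags (horizontal, log scale) are plotted against fold over input (vertical, log scale) for every NF-YB site, with NF-YB-only sites in red and all others in grey. The diagonal lines of points are sites with 1, 2, 3 and more input tags; red points crowd the low left, and those of 50 tags or more lie mostly on the lower lines.

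The strong NF-YB-only sites had low folds for their tags, as had strong NF-YB sites that lacked a single partner. The 27 sites of 50 tags or more had a median fold of 13.1, with a range of 7.73 to 63.1. The other 1162 NF-YB sites in this class had a median of 25.3, with a median of 83 tags against 70. In recovered input tags, 17 of the 27 stood at 5 or more (63.0%, 42.4 to 80.6), against 410 of 1162 (35.3%, 32.5 to 38.1). Strong NF-YB sites with NF-YA but no NF-YC site lay near the NF-YB-only ones, with a median fold of 14.9 and 85 of 149 sites at 5 or more input tags (57.0%, 48.7 to 65.1). Those in regions of all 3 subunits had a median fold of 27.8 and 318 of 999 sites at that input (31.8%, 29.0 to 34.8). Below 36 tags a listed NF-YB site of up to 60 bp could not hold 5 input tags, given the fold limit. At 36 to 49 tags, 8 of 37 NF-YB-only sites (21.6%, 9.83 to 38.2) and 71 of 425 others (16.7%, 13.3 to 20.6) did. The input counts come from the tags and folds that decided the calls, so these shares are a description and were not tested.

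Input also set how many tags a partner needed. Among sites of up to 60 bp, the fewest tags of a listed NF-YA site were 14 at 1 or 2 input tags, 18 at 3, 24 at 4, 30 at 5, 36 at 6 and 47 at 8. NF-YC sites of that width followed nearly the same steps, with 14, 18, 24, 29, 35 and 47 tags. At a site with 8 input tags a partner of 40 tags would therefore have gone unlisted. Counting this second limit, 219 of the 385 sites would have reached both minimums at the median ratios, against 84.0% of all NF-YB sites. The part of input in the missing partners was not tested.

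The strongest NF-YB-only site, at 95429231 to 95429291 of chromosome 3 (mm9), held 219 tags at a fold of 36.3 and ranked 48 in the NF-YB list. A second NF-YB-only site, on the same chromosome from 95428791 to 95428831, had 96 tags and lay 450 bp away. Between their centres stood a wide NF-YA site, 95428791 to 95429251, with 226 tags, and a wide NF-YC site, 95428791 to 95429271, with 105 tags. Both NF-YB sites overlapped both of these intervals, one at either end. They counted as NF-YB-only because the centres of the 460 bp and 480 bp wide partner sites fell 210 to 240 bp away.

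The next in tag count, on chromosome 8 from 116158891 to 116159131, was of the same kind. It held 127 tags at a fold of 63.1, the highest fold of the 385. An NF-YC site of 500 bp and 80 tags overlapped it with its centre at 210 bp, and an NF-YA site of 156 tags stood at 280 bp. On chromosome 7, the site at 144602471 to 144602511 (69 tags) had an NF-YA site of 60 tags and an NF-YC site of 65 tags, both with centres at 250 bp and neither touching it. At these loci NF-YA and NF-YC were listed in the immediate neighbourhood, so the name NF-YB-only holds for the distance rule and not for the locus.

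**Figure D4:**
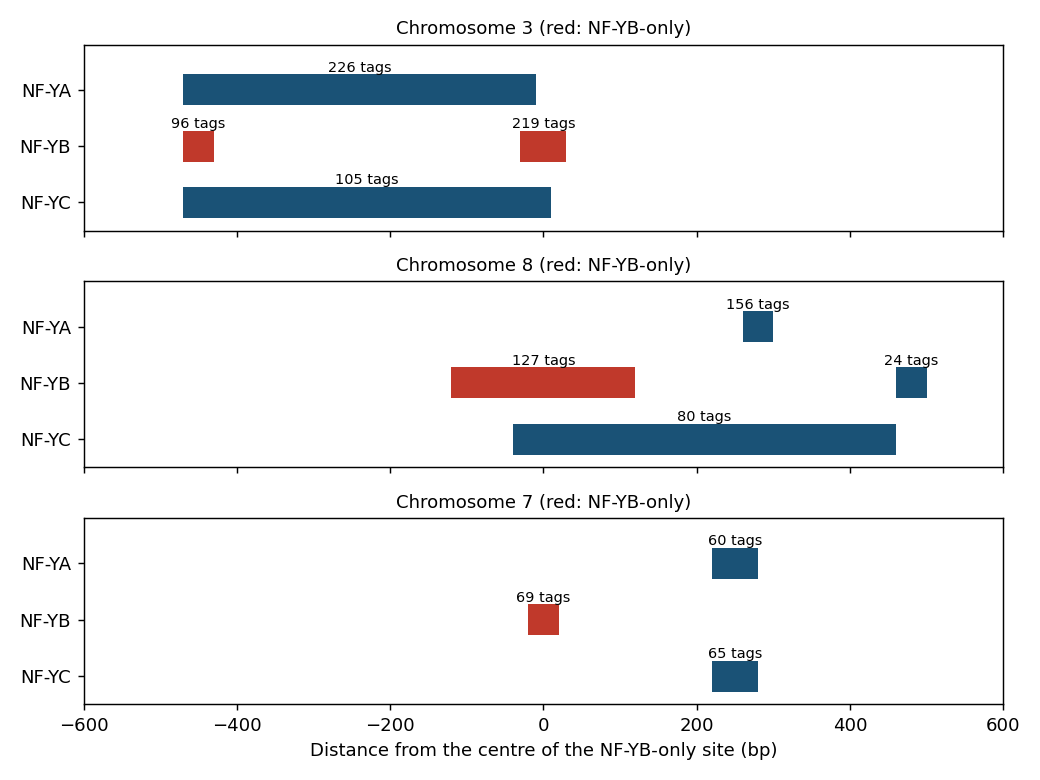
Printed intervals of the sites of every list are drawn to scale at the strongest NF-YB-only sites with a partner centre within 500 bp, on 3 chromosomes; the horizontal axis is the distance in bp from the centre of the NF-YB-only site, and tags are given above each bar. On chromosomes 3 and 8 the red NF-YB-only intervals overlap wide partner intervals, and on chromosome 7 the partners stand 250 bp aside.

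Only a few of the regions had such neighbours. An NF-YA or NF-YC centre lay within 500 bp of 12 of the 385 and within 1 kb of 17 (4.42%). Close neighbours were also few among regions of all kinds. Between mean centres of regions, another region lay within 500 bp of 3.12% of NF-YB-only regions and 3.20% of all regions. Within 1 kb the shares were 4.16% and 5.68%. Overlapping intervals, of which shared end coordinates were not counted, were found at 4 of the 385: the pair on chromosome 3, the site on chromosome 8 and a 440 bp wide site on chromosome Y from 2787591 to 2788031 (33 tags), inside an NF-YC site of 1260 bp. On chromosome 17 a site at 3557311 to 3557471 (22 tags) ended at the coordinate where an NF-YA and an NF-YC site began. Of the 17, 9 also had an NF-YB site of a shared region within 1 kb, and at 8 of these that other NF-YB site was the stronger. On chromosome 18, for example, the NF-YB-only site at 42670691 to 42670731 held 34 tags, and the shared region beside it held 144 NF-YB, 222 NF-YA and 127 NF-YC tags. The 17 sites had a median of 25 tags and included 2 of the 6 sites with 100 tags or more. The other 368 had a median of 21 tags and a maximum of 117.

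The 200 bp limit itself decided few members. The 5 NF-YB-only sites nearest to a partner had distances of 210, 210, 220, 220 and 230 bp, with 96, 127, 15, 22 and 219 tags. Just inside it, 4 NF-YB sites had a partner centre at exactly 200 bp and the fifth at 190 bp, with 49, 37, 88, 24 and 25 tags. At a limit of 1000 bp 368 NF-YB-only regions were left, and at 100 bp there were 440. When joining required overlap of the printed intervals the number rose to 650, and with the 3 lists cut to 2675 sites each by tag count it rose to 614.

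Away from other sites, the strongest NF-YB-only site was on chromosome 2 from 30555471 to 30555531, with 117 tags, a fold of 16.6 and 7 input tags. Its nearest NF-YA and NF-YC centres were 18550 and 18460 bp away. Next came chromosome 19 at 42210551 to 42210591 (108 tags, fold 17.9), with a region of all 3 subunits 7003 bp away. The site on chromosome 11 at 114142491 to 114142531 held 107 tags at a fold of 26.6, and its nearest region of any kind lay 95560 bp away. On chromosome 4 the site at 155358111 to 155358151 held 100 tags at a fold of 24.8. These 4 were the NF-YB-only sites of 100 tags or more without a partner within 1 kb.

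At this strength a missing NF-YA site was rare in the NF-YB list. Of the 427 NF-YB sites with 100 tags or more, the other 421 all had an NF-YA site in their region, with at least 27 and a median of 133 NF-YA tags. NF-YC was present at 401 of these 421, with at least 16 tags. For the chromosome 2 site, with 7 input tags, NF-YA and NF-YC would each have needed 41 tags, against 140 and 87.8 at the median ratios. The chromosome 11 site, with 4 input tags, needed 24 tags of either partner, against 128 and 80.3 at those ratios. These values are high for sites of this strength. Where NF-YB sites of 100 to 149 tags had the partner, its median was 112 tags for NF-YA and 65 for NF-YC. The lowest NF-YA to NF-YB ratio in any region of all 3 subunits was 0.247, and the lowest NF-YC to NF-YB ratio 0.103.

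The remaining sites of the 10 with most tags were on chromosome 19 at 4201631 to 4201671 (94 tags, fold 11.7), chromosome 17 at 25010771 to 25010831 (91 tags, fold 18.1) and chromosome 19 at 37437251 to 37437291 (89 tags, fold 9.82). Their recovered input was 8, 5 and 9 tags, against a median of 4.0 at the other NF-YB sites of 50 tags or more. Without the 4 sites beside partners, 16 of 23 sites of 50 tags or more had 5 or more input tags (69.6%, 47.1 to 86.8).

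The sites of highest fold were a different set and mostly held fewer tags. After the chromosome 8 site came chromosome 2 at 151805931 to 151805971 (50 tags, fold 49.7), chromosome 2 at 150570931 to 150570971 (43 tags, fold 42.7), chromosome 11 at 117849471 to 117849511 (41 tags, fold 40.7) and chromosome 1 at 158900391 to 158900431 (38 tags, fold 37.8). The last 4 were each 40 bp wide, with a recovered input of 1 tag, the lowest value that the fold can express. A partner would have needed 14 tags at such a site. The chromosome 2 site of 50 tags would have had 60 NF-YA and 37.5 NF-YC tags at the median ratios, and its nearest partner centre was 115130 bp away.

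Widths gave little to tell the regions apart. The median width was 60 bp, as for NF-YB sites in regions of NF-YA and NF-YB, against 40 bp in regions of all 3 subunits. Of the 385 sites 75 were wider than 100 bp (19.5%), and 12.4% of all NF-YB sites were. At equal tags the gap was small: at 15 to 19 tags 24.3% of NF-YB-only and 20.2% of the other NF-YB sites were that wide, and at 20 to 24 tags 22.1% and 27.7%. The widest was a 580 bp site on chromosome 6 from 52028551 to 52029131 with only 24 tags. It was followed by the 440 bp site on chromosome Y and by a tie at 320 bp, with 17 tags on chromosome 10 (121850851 to 121851171) and 15 tags on chromosome 14 (66453691 to 66454011).

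Position on the genome beyond 200 bp was not used to choose the regions. Their distance to the nearest other NF-Y region had a median of 54.7 kb (quartiles 19.3 and 174 kb), against 55.2 kb for all other regions (17.7 and 158 kb). Another region lay within 10 kb of 57 of the 385 (14.8%, 11.4 to 18.8), against 17.8% of all regions and 18.03% of the others (17.0 to 19.1). No other region lay within 500 kb of 35 (9.09%, 6.41 to 12.4), against 7.85% of all regions and 7.75% of the others (7.03 to 8.53). The intervals overlapped in both comparisons, and a difference in spacing was not tested. Regions close together were counted for each other, so they are not independent.

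The nearest regions were of every kind. Among the 57 with a neighbour within 10 kb, the nearest region held all 3 subunits in 15 cases and NF-YA only in 17. It held NF-YA and NF-YC in 11 cases, NF-YA and NF-YB in 5, NF-YC only in 5, NF-YB only in 2, and NF-YB with NF-YC in 2. As shares of the 57 these were 26.3% and 29.8% for the first kinds, which made up 32.2% and 31.6% of all regions. NF-YA with NF-YC accounted for 19.3% against 11.5% of all regions, and NF-YA with NF-YB for 8.77% against 11.2%. NF-YC only accounted for 8.77% against 5.20%, NF-YB only for 3.51% against 7.2%, and NF-YB with NF-YC for 3.51% against 1.05%. None of these differences was tested. Measured to single sites, the median distance to the nearest NF-YA site was 71.1 kb and to the nearest NF-YC site 154 kb. The 278 NF-YC-only regions mirrored this, with medians of 75.2 kb to NF-YA and 150 kb to NF-YB.

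NF-YC-only regions resembled the NF-YB-only ones in strength as well. They had a median of 20 tags (range 14 to 118) and a median fold of 11.8, against 21 tags and 14.2. In percentiles of their own lists, the medians were 18.8 for NF-YC-only and 17.4 for NF-YB-only sites by tag count. The 1693 NF-YA-only regions had a median of 21 NF-YA tags, at percentile 25.3 of a longer list.

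NF-YB-only regions lay on all chromosomes in rough proportion to the other regions. They made up from 3.74% of the regions of chromosome 19 (7 of 187, 1.52 to 7.56) to 10.0% of those of chromosome 10 (28 of 279, 6.77 to 14.2), leaving aside chromosome Y with 1 of 5. The interval of each chromosome included the genome-wide 7.2%. In number, chromosome 7 led with 35, followed by chromosomes 5 and 11 with 30 each. Between the first and last region of a chromosome, chromosome 17 carried most per Mb among the autosomes and X (0.293) and chromosome X fewest (0.0502). Chromosome X was also lowest for regions of all kinds (0.804 per Mb). Chromosome 17 had 3.37 of these per Mb, and chromosome 11 the most, 3.88. These densities were not adjusted for copy number, gene content or mappability.

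**Figure D5:**
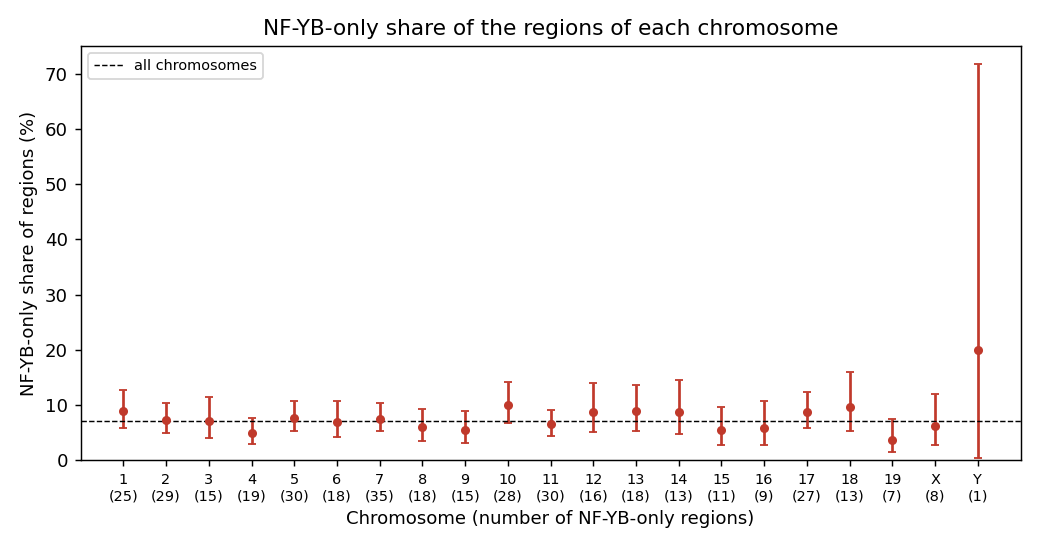
Points give the share of regions that were NF-YB-only (vertical axis, %) on each chromosome (horizontal axis, number of NF-YB-only regions in brackets), and bars the exact 95% binomial interval. The dashed line is the share over all chromosomes, and all 21 intervals include it; chromosome Y rests on 5 regions.

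The spacing between NF-YB-only regions themselves was also measured. Neighbouring members were within 10 kb in 2 cases: the pair on chromosome 3 and a pair on chromosome 13, at 98277151 to 98277191 (26 tags) and 98279491 to 98279571 (15 tags), 2360 bp apart with no other site between. Within 50 kb, 180 of the 385 had another region of any kind, and for 22 of these the nearest was NF-YB-only (12.2%, against 7.2% of all regions). Members that were each other's nearest region were both counted, so these cases are not independent. Within 10 kb the share was 3.51%, and neither difference was tested. Pairs of neighbouring NF-YB-only regions within 100 kb numbered 22. Fixed windows of 100 kb held at most 2, and 12 of the 373 windows with a member held 2. Among these were chromosome 17 at 56615991 and 56627551 (37 and 17 tags), chromosome 11 at 52160291 and 52172251 (17 and 16 tags) and chromosome 4 at 133054511 and 133066871 (19 and 21 tags).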

How the data were processed

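The 3 site lists were used as deposited. The submitters' processing notes name Bowtie and the mm9 build. Sites were called with SISSRs 1.4 in each library against 1 input library of 13767116 tags, per the file headers (E-value 10, p-value 0.001, window 20 bp). Only 1 tag was kept per position, which caps the count of strong sites. The deposited tag counts are whole tags per site, not normalized. The deposited fold is a ratio of site tags to scaled input tags, and the deposited p-value was not used. Bowtie's version, the stretch over which tags were counted and the base of the positions (0 or 1) are not given in these sources.

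Regions were built with Python 3.11.15, numpy 2.4.6, pandas 2.3.3 and scipy 1.17.1, drawn with matplotlib 3.10.9, and the chaining was tested on simulated data. That simulation placed sites well inside the 200 bp limit or over 1000 bp away, so the limit itself was not tried. Input tags were recovered as tags divided by the fold and by the ratio of kept to input tags; a value of 1 may stand for none. Expected partner tags are NF-YB tags times the median ratio over regions of all 3 subunits, taking the strongest site of a list. Intervals are exact (Clopper-Pearson, 95%), and those of medians are exact order-statistic intervals. Named are the 10 regions with most tags, the 5 of highest fold, the 3 widest (with a tie for the last place), the 5 on either side of the 200 bp limit, and the closest of those sharing a 100 kb window. The examples on chromosomes 7, 13 and 18, the abutting site on chromosome 17 and the 1 Mb stretch were chosen after their values were seen. The regions and rules were chosen with earlier results of these data known. Leaving out chromosome Y, sites wider than 200 bp or members overlapping a partner interval, and adding the fold limit, were alternatives chosen after seeing the data.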

Additional observations from a re-analysis of the deposited data

How the results depend on the processing

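Of 52 alternative values, 35 stayed within the bounds set for them (counts within 1.5 times, shares and medians within their 95% interval). The number of NF-YB-only regions, 385, became 650 with overlapping intervals, 614 with lists of equal length, 41 with NF-YB sites of at least the median tags and 133 with those of at least the median fold. The median tag percentile moved from 17.4 to 26.9 with overlapping intervals, 23.1 with equal lists and 63.4 with the tag setting. The median fold percentile became 60.2 under the fold setting. The share of NF-YB sites of 43 tags or more that stood alone, 2.95%, became 12.4% with overlapping intervals, 5.10% with equal lists, 4.31% with joining at 100 bp and 1.54% under the fold setting. The share with a neighbour within 10 kb, 14.8%, became 24.4% with the tag setting and 10.7% with equal lists, and was 46.8% at 50 kb and 4.16% at 1 kb. The sites expected to reach both limits fell from 234 to 124 with the first quartile of the ratio. The tag and fold settings remove weak sites by construction, and equal lists remove NF-YA sites under 30 tags; the cause of the other shifts was not tested. Alternatives for CCAAT and gene starts were not run, since no mm9 genome or annotation was used. No paired analysis was possible because no subunit had a replicate library, and none could be left out. Depth limits what absence means: a partner under 14 tags, or under 7-fold, is missing from its list.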

Other observations

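The stretch of 1 Mb with most NF-YB-only regions lay on chromosome 17, where 6 NF-YB-only regions fell between 56615991 and 57259171 (mm9), a span of 643 kb. Their NF-YB tags were 37, 17, 16, 15, 32 and 18, all below the NF-YB list median of 43. The nearest region of 5 of them was another NF-YB-only region. Within 1 Mb of the first of them stood 21 regions in all, of which 6 held all 3 subunits and 7 NF-YA only. Stretches of 1 Mb that began at an NF-YB-only region held no other in 285 of 385 cases.

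Chromosome 19 was singled out after its values were seen. Its share of NF-YB-only regions was 7 of 187 (3.74%, 1.52 to 7.56), an interval that includes the 7.2% of all chromosomes. Of the 7, 4 held 50 tags or more, and the median of the 7 was 50 tags, against 21 over all 385. The highest median of any other autosome was 31, on chromosome 16, from 9 regions.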
